A study of Mus musculus with 4 samples.

Results

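Small heat shock proteins are a family of small chaperones, and 5 of their genes were followed here through single cells of cultured mouse muscle stem cells. The 5 genes, Hspb1, Hspb2, Hspb7, Hspb8 and Cryab, were taken by name from the deposited tables, and all 5 were among the 13772 genes listed. The study asked how age and the stiffness of the culture surface act on muscle stem cells. It has 4 libraries, 1 per group: aged cells on stiff (29 kPa) polydimethylsiloxane, aged cells on soft (12 kPa) polydimethylsiloxane, young cells on the stiff surface and young cells on the soft one. All cells came from skeletal muscle of wild-type C57BL/6 mice and were kept for 7 days in DMEM with fetal bovine serum. The ages of the animals, how many animals were pooled and how the stem cells were isolated are not stated in the labels. RNA was captured from trypsinised cells with the droplet-based 10x Chromium 3′ v3 chemistry, which counts transcripts by unique molecular identifiers (UMIs). With 1 library in each group no test between groups was possible, so levels and ratios are descriptions of these libraries, and their intervals cover counting error only.

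Small heat shock proteins hold unfolding proteins in a soluble state without using ATP, and hand them to the refolding or degradation machinery. Skeletal and heart muscle are rich in them, and several bind the cytoskeleton of the contractile cell. Hspb1, known as Hsp25 in mice, is found in many tissues and associates with actin filaments. Cryab, or αB-crystallin, associates with desmin and titin. Hspb2 was first described as a binding partner of the myotonic dystrophy protein kinase and forms complexes with Hspb3. Hspb7 is largely a heart and skeletal muscle protein that binds filamin C. Hspb8 works with the co-chaperone Bag3 in the selective autophagy of damaged muscle proteins. Some family members are induced by heat through heat shock factors, which bind repeats of the motif nGAAn, and others mainly accompany muscle differentiation, which the transcription factor myogenin (Myog) drives.

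The promoters are shown because the members differed in how they followed muscle differentiation, and because heat shock factors and myogenic factors read different motifs. RefSeq windows on build GRCm38.p6 were found for 3 of the 5 members, and Cryab and Hspb2 were not matched. Each line runs 5′ to 3′ on the strand of the gene, with 250 bases before the start site and 30 after it. Capitals mark the inverted heat shock repeat GAANNTTC, which reads the same on both strands.
Hspb1, chr5:135887669-135887948, plus strand: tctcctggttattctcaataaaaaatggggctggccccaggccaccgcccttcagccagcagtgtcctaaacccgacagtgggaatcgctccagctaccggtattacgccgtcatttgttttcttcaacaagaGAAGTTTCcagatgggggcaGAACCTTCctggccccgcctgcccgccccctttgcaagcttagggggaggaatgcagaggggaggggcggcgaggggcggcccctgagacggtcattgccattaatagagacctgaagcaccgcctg
Hspb8, chr5:116422835-116423114, minus strand: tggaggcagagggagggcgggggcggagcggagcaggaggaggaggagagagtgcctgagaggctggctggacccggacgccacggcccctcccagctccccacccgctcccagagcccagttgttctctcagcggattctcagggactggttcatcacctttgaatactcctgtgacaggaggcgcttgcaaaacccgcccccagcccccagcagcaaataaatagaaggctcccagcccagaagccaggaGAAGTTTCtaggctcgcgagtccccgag
Hspb7, chr4:141420529-141420808, plus strand: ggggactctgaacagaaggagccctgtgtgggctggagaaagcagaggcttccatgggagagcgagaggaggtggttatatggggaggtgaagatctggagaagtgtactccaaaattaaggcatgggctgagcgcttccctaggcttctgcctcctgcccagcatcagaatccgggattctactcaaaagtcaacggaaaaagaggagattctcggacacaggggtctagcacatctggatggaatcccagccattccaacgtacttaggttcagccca

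The Hspb1 window holds 2 copies of GAANNTTC, which begin 117 and 97 bases before the start site. The Hspb8 window holds 1 copy, 2 bases after it, and the Hspb7 window holds none. The motif occurs in 7.86% of the 32851 promoter windows of 300 bases in the same table, and the opposite spacing TTCNNGAA, found in none of the 3 members, occurs in 8.52%. The E-box CANNTG, the core motif of myogenin and its relatives, occurs 2 times in the Hspb1 window and 1 time each in those of Hspb7 and Hspb8, against 72.3% of all windows with at least 1 copy. The site CTAAAAATA of the myogenic MEF2 factors occurs 1 time in the Hspb1 window, 30 bases after the start site and just past the printed bases. The windows of Hspb7 and Hspb8 lack it, and 0.517% of all windows have it. These are matches of letters in a window, not measured binding sites.

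The tables gave 1738, 1333, 1479 and 1360 cells after filtering in aged stiff, aged soft, young stiff and young soft, with a median of 37081, 33315, 28611 and 35606 UMIs per cell. A single cell barcode was shared between any pair of libraries, aged stiff and young soft. Markers of the labelled cell type were present in each library: Pax7, the transcription factor of muscle stem cells, averaged 32.0, 41.8, 66.2 and 72.7 CPM (UMIs scaled to 1000000 per cell), and 6 or 7 of 8 progenitor markers reached 20 CPM. The summed level of 9 myocyte markers was 56423, 49033, 31043 and 28299 CPM, and that of 8 proliferation markers was 255, 350, 965 and 957 CPM. The aged libraries thus had more RNA of contractile genes and less of dividing-cell genes. The age ratios of the members are given below both over all cells and with contractile level evened out. Of markers of other cell types, 3 endothelial genes summed to at most 0.202 CPM in any library, with Emcn at 0 in 3 of the 4, and 6 macrophage genes to 6.93, 7.02, 1.71 and 1.35 CPM in aged stiff, aged soft, young stiff and young soft, with C1qa and Ptprc at 0 in both young libraries. Of 5 fibro-adipogenic markers only Col3a1 passed 20 CPM, and the list summed to 83.0, 104, 231 and 245 CPM. Of 3 tenocyte markers only Scx passed it, with Tnmd at 0 in 3 libraries, and the list summed to 303, 294, 164 and 141 CPM. The 4 mural genes summed to 54.4, 57.8, 51.7 and 47.7 CPM, within which Abcc9 stood at 40.7, 36.1, 19.3 and 17.7 CPM and Pdgfrb at 10.6, 16.2, 27.1 and 26.9 CPM. The part of these lists in the age differences was not tested.

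Every one of the 5 genes had its highest mean level in aged cells on the stiff surface and its lowest in young cells on the soft surface. The order of the libraries was the same for all 5: aged stiff, aged soft, young stiff, young soft. Levels are means of CPM over cells.

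**Figure D1:**
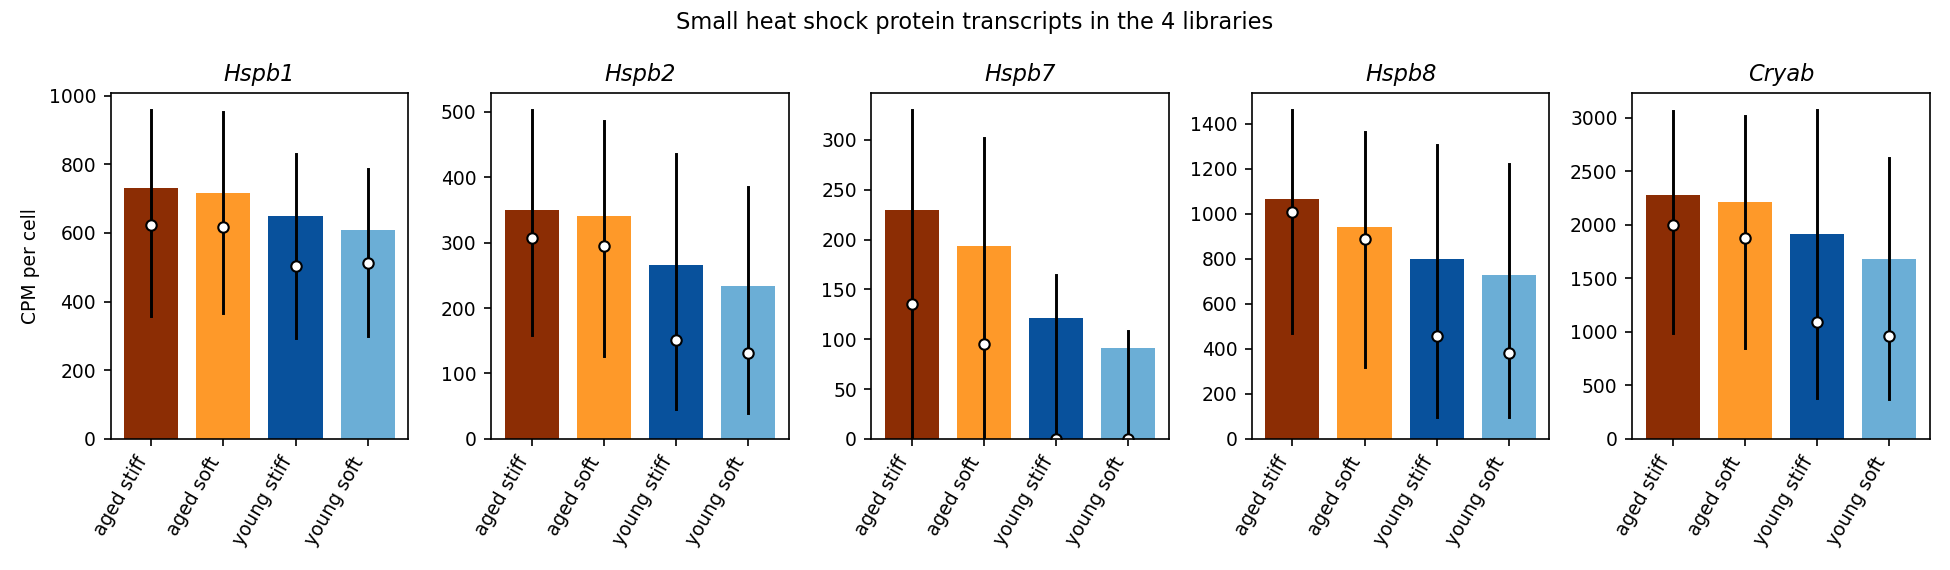
Mean CPM per cell of each small heat shock gene (bars) in the 4 libraries, with the median cell (white point) and the range from the 25th to the 75th percentile of cells (line); each panel has its own CPM axis from 0, and each bar is 1 library. The 4 bars fall in the order aged stiff, aged soft, young stiff, young soft for every gene, and the median cell of both young libraries has no Hspb7 UMI.

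Hspb7, the filamin C partner, averaged 230 CPM in aged stiff, 193 CPM in aged soft, 122 CPM in young stiff and 90.9 CPM in young soft. The median cell had 136 CPM in aged stiff and 95.7 CPM in aged soft, and 0 in both young libraries. A Hspb7 UMI was found in 73.4%, 66.2%, 43.5% and 42.6% of cells of aged stiff, aged soft, young stiff and young soft. With depth made equal at 2000 UMIs per cell, a depth that each cell reached, the shares were 30.03% (95% exact binomial interval 27.9 to 32.3), 25.7% (23.3 to 28.1), 16.9% (15.03 to 18.9) and 11.6% (9.96 to 13.4). The aged shares lay above the young ones, and at each age the stiff share was above the soft one, although the intervals of the aged pair overlapped.

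Hspb2, the myotonic dystrophy protein kinase partner, averaged 351 CPM in aged stiff, 340 CPM in aged soft, 266 CPM in young stiff and 235 CPM in young soft. The ratio of its summed UMIs between aged stiff and aged soft was 1.02 with an exact 95% interval of 0.997 to 1.03. That was the only pair of neighbouring libraries, among the 5 genes, compared at one age or on one surface whose counting interval took in a ratio of 1. Hspb8, the Bag3 partner, averaged 1068, 943, 801 and 730 CPM in aged stiff, aged soft, young stiff and young soft. Its median cell had 1006 and 890 CPM in the aged libraries and 459 and 380 CPM in the young ones.

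Cryab, the desmin-binding crystallin, averaged 2282 CPM in aged stiff, 2218 CPM in aged soft, 1910 CPM in young stiff and 1678 CPM in young soft. Its median cell had 1994, 1877, 1097 and 960 CPM, so the young median was further below the aged one than the young mean was. The 75th percentile of cells stood at 3065, 3013, 3074 and 2627 CPM, and there young stiff stood as high as the aged libraries. Hspb1, the actin-associated member, spanned the narrowest range: 730 CPM in aged stiff, 716 CPM in aged soft, 650 CPM in young stiff and 608 CPM in young soft. Reads of Hspb1 may be shared with a near copy, since of all 30-base words drawn from its GENCODE M21 transcripts, within 500 bases of their 3′ ends, 45.3% also occur in Hsp25-ps1, and its absolute level is uncertain for that reason. The other 4 members shared none of these words with another gene. Hspb2 and Cryab lie head to head on opposite strands of chromosome 9 in GENCODE M21 and overlap by 1030 bases at their 5′ ends but not at their 3′ ends, and whether counting used strand is not stated in the labels.

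Between aged and young cells the 5 genes were higher in the aged library on both surfaces. On the soft surface the log2 ratios of mean CPM plus 5, aged over young, were 1.05 for Hspb7, 0.53 for Hspb2, 0.40 for Cryab, 0.37 for Hspb8 and 0.23 for Hspb1. Thus 4 of the 5 were at least 1.2-fold higher, against 12.9% of the 6147 genes that reached 20 CPM in 1 library or both. Hspb7 alone passed 1.5-fold, as did 2.96% of these genes, and it stood at rank 40 of 6147 from the highest ratio. Its summed UMIs gave an aged over young ratio of 2.21 with a counting interval of 2.14 to 2.29.

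On the stiff surface the aged over young log2 ratios were 0.89 for Hspb7, 0.41 for Hspb8, 0.39 for Hspb2, 0.26 for Cryab and 0.17 for Hspb1. Here 3 of the 5 were at least 1.2-fold higher, against 14.4% of 6047 genes, and Cryab lay just under that fold at 1.19-fold. Hspb7 again was the single member past 1.5-fold, a fold that 3.32% of the genes passed, and stood at rank 84 of 6047. The median of the 5 members was 0.40 on soft and 0.39 on stiff, against -0.12 and -0.13 for all genes measured. Scaling by the median ratio of the genes, in place of CPM, would add 0.11 and 0.10 to each of these age ratios. None of the 5 was 1.2-fold lower on either surface, where 34.1% and 35.2% of genes were.

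Between stiff and soft the ratios were smaller, and Hspb7 again led. In young cells the stiff over soft log2 ratio was 0.40 for Hspb7, 0.19 for Cryab, 0.18 for Hspb2, 0.13 for Hspb8 and 0.09 for Hspb1. Hspb7 was the only member at least 1.2-fold higher, against 0.365% of 6034 genes, and held rank 5 of 6034. The UMI ratio of Hspb7, stiff over soft in young cells, was 1.36 with a counting interval of 1.31 to 1.42. The others stood between rank 96 for Cryab and rank 648 for Hspb1, and the median of all genes was -0.03.

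In aged cells the stiff over soft log2 ratio was 0.25 for Hspb7, 0.18 for Hspb8, 0.04 for Hspb2, 0.04 for Cryab and 0.03 for Hspb1. None reached 1.2-fold, which 0.865% of 5552 genes did, although Hspb7 at 1.19-fold was just under it. No member was 1.2-fold lower on stiff at either age, where 1.41% of genes were in young and 3.21% in aged cells. Hspb7 held rank 62 and Hspb8 rank 178 of 5552. The stiff over soft log2 ratio of aged cells minus that of young cells was -0.15 for Hspb7, -0.15 for Cryab, -0.14 for Hspb2, -0.07 for Hspb1 and 0.05 for Hspb8, and with 1 library in each group this difference could not be tested. The 4 comparisons share libraries pairwise, so they are not independent of each other.

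The members parted when cells were ordered by Myog. Cells were placed in 5 bins at cut points common to the libraries: Myog at 0, then above 0 with cuts at 609, 1444 and 3008 CPM. Hspb1 was highest in the cells with most Myog, whereas Hspb7 was highest in the middle of the range and low at both ends. Hspb2, Hspb8 and Cryab were highest in bin 3 or bin 4 and lower in the top one.

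**Figure D2:**
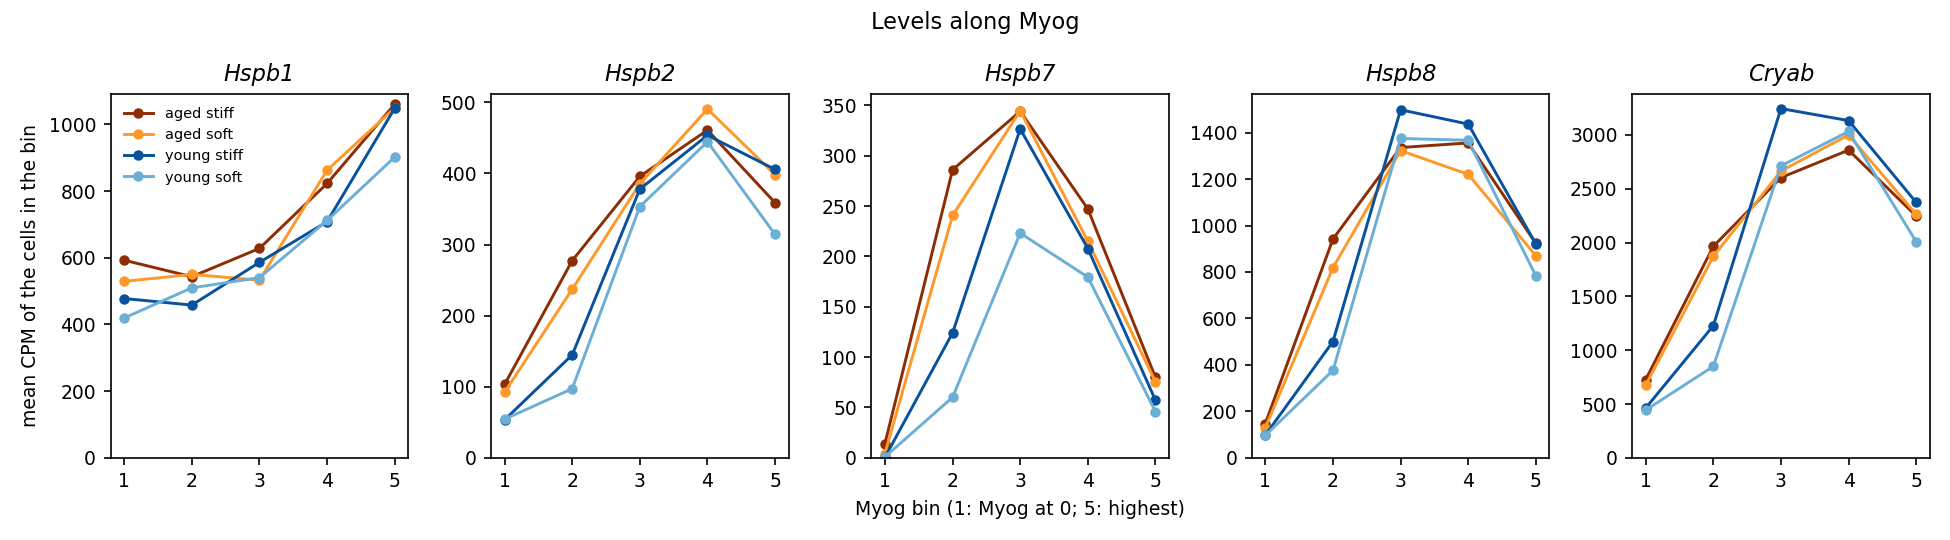
Mean CPM of each small heat shock gene in 5 bins of Myog level, from Myog at 0 (bin 1) to the highest Myog (bin 5), 1 line per library; each panel has its own CPM axis from 0. Hspb1 ends at its highest point in all 4 libraries, while Hspb7 peaks in bin 3 and is between 45.9 and 79.9 CPM in bin 5.

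Hspb1 in cells without Myog averaged 593, 529, 478 and 419 CPM in aged stiff, aged soft, young stiff and young soft. In the top Myog bin it averaged 1060, 1049, 1048 and 902 CPM. The top bin was between 1.79-fold (aged stiff) and 2.19-fold (young stiff) above the bottom one, so every library shared the direction.

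Hspb7 averaged 14.2, 4.26, 0.502 and 0.884 CPM in the cells of aged stiff, aged soft, young stiff and young soft without Myog. In bin 3, between 609 and 1444 CPM of Myog, it averaged 344, 345, 327 and 223 CPM. In the top bin it was down to 79.9, 75.5, 57.2 and 45.9 CPM, below its level in bin 2 in every library. Bin 2 held the widest gap between ages in CPM: 286 and 241 CPM in aged stiff and aged soft, against 124 and 60.1 CPM in young stiff and young soft. Its cells were a mixture. By the contractile bins described below, those in contractile bins 1 and 2 averaged 1.86 and 4.33 CPM of Hspb7 over libraries. Those in contractile bins 3 to 5 averaged 368 to 480 CPM. The part of this mixture in the gap was not tested.

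Hspb8 averaged 148, 130, 97.7 and 96.7 CPM without Myog in aged stiff, aged soft, young stiff and young soft, and 1336, 1323, 1498 and 1375 CPM in bin 3. There the young libraries were no lower than the aged ones. Cryab averaged 727, 676, 463 and 444 CPM in cells without Myog and 2604, 2665, 3245 and 2713 CPM in bin 3. Hspb2 averaged 103, 92.2, 53.4 and 54.3 CPM without Myog, and 461, 491, 454 and 445 CPM in bin 4, where it peaked in each library. For Cryab and Hspb2 both aged libraries thus stood above both young ones in cells without Myog. The libraries came close together or crossed in bin 3 for Cryab and in bin 4 for Hspb2. In the top bin Hspb2 averaged 359, 398, 406 and 314 CPM in aged stiff, aged soft, young stiff and young soft. On soft the aged library was therefore again the higher one there. Cells without Myog were shallower, with medians of 22128 to 29410 UMIs, than those of bin 4, with 33871 to 42397.

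Myog level is not a simple ruler of differentiation, because the contractile genes themselves were highest in its middle bins. The sum of 16 contractile transcripts (such as Acta1, Tnnt3 and Myh3) averaged 113839, 108183, 89880 and 87526 CPM in Myog bin 3 of aged stiff, aged soft, young stiff and young soft, but 66700, 67259, 63910 and 54616 CPM in the top one. Cells were therefore also ordered by this sum, in 5 bins that each hold an equal share when the libraries are weighted equally. On this axis Myog was highest in bin 3, at 2971, 3209, 3013 and 2925 CPM.

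**Figure D3:**
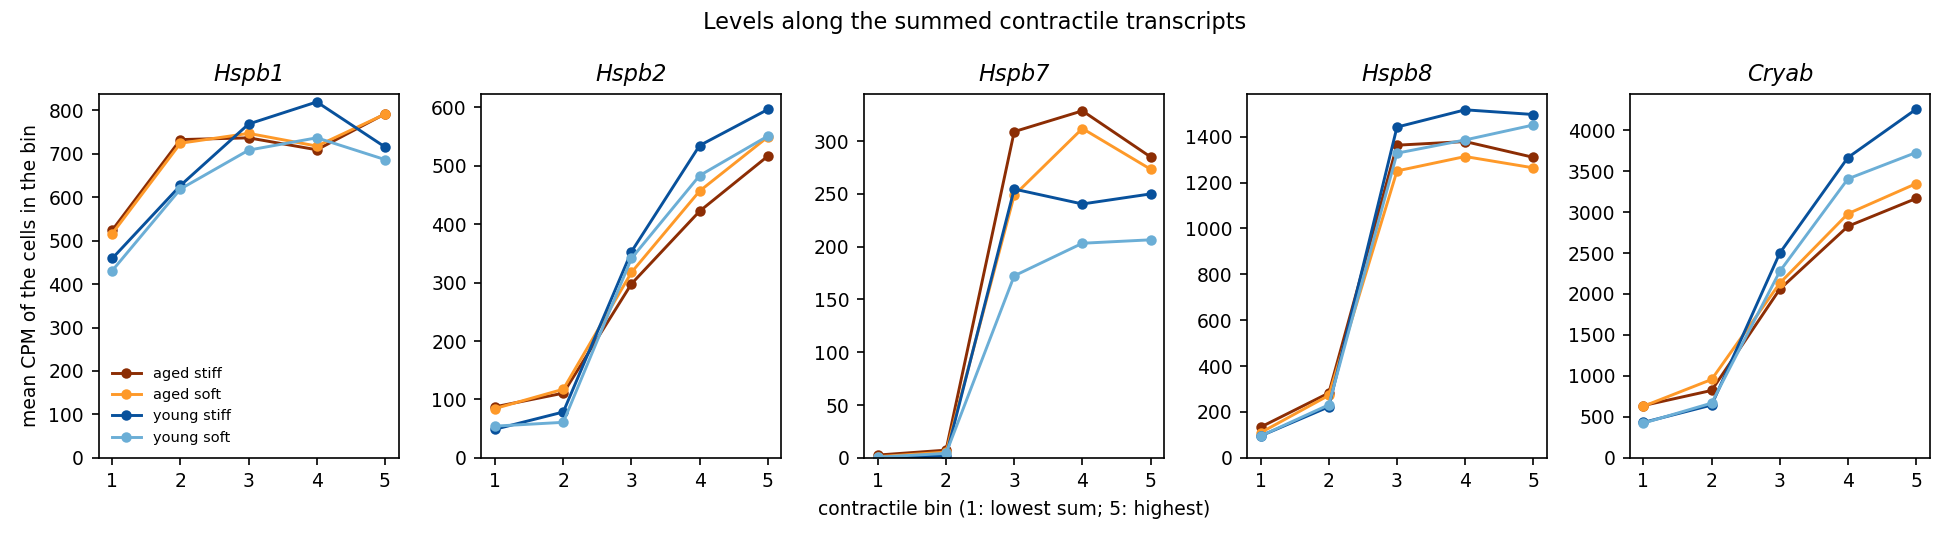
Mean CPM of each small heat shock gene in 5 bins of the summed contractile transcripts, lowest (bin 1) to highest (bin 5), 1 line per library; each panel has its own CPM axis from 0. Hspb2 and Cryab are higher at every step, Hspb7 and Hspb8 are low in bins 1 and 2 and high from bin 3, and Hspb1 changes least.

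Hspb2 and Cryab were higher at every step of the contractile axis in all 4 libraries. Cryab averaged 638, 630, 432 and 424 CPM in the lowest bin of aged stiff, aged soft, young stiff and young soft, and 3166, 3347, 4256 and 3727 CPM in the highest. Hspb2 averaged 87.4, 84.4, 48.9 and 54.3 CPM in the lowest bin and 517, 549, 596 and 551 CPM in the highest. For both genes the aged libraries were above the young ones in the lowest bin, and for Cryab they were below both young libraries in the highest.

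Hspb7 had next to no transcripts in cells of the lowest contractile bin, with 2.64, 1.07, 0.218 and 0.670 CPM in aged stiff, aged soft, young stiff and young soft. It was still at 7.28, 5.42, 1.63 and 4.20 CPM in bin 2, and then stood at 309, 249, 255 and 172 CPM in bin 3. Hspb8 showed its main step at the same place, with 283, 272, 223 and 231 CPM in bin 2 and 1363, 1251, 1442 and 1328 CPM in bin 3. Hspb1 was in the top bin 1.51 to 1.59 times its level in the lowest.

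Using both axes at once separated Hspb1 from Hspb7. Within each of the 3 upper contractile bins, the mean over libraries of Hspb1 was higher in each higher Myog bin and that of Hspb7 was lower. In contractile bin 3 Hspb1 averaged 374 CPM in Myog bin 2 (3 libraries with at least 20 cells, 288 to 476) and 1063 CPM in the top one (4 libraries, 960 to 1222). In the same cells Hspb7 averaged 480 CPM (395 to 606) and 64.0 CPM (51.4 to 80.4). The libraries did not overlap between these ends of the Myog range for either gene. In the highest contractile bin the spans were narrower, 546 against 1104 CPM for Hspb1 and 368 against 133 CPM for Hspb7, for Myog bin 2 against the top one in 3 libraries each.

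The libraries differed in how many cells stood at each stage, and the age ratios changed when that was evened out. The highest contractile bin held 32.6% and 25.3% of aged stiff and aged soft cells and 12.8% and 9.41% of young stiff and young soft cells. The lowest held 7.94% and 14.0% of aged stiff and aged soft cells, against 28.5% and 29.6% of young stiff and young soft cells. Ratios were therefore recomputed with each of the 5 bins given equal weight in both libraries.

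**Figure D4:**
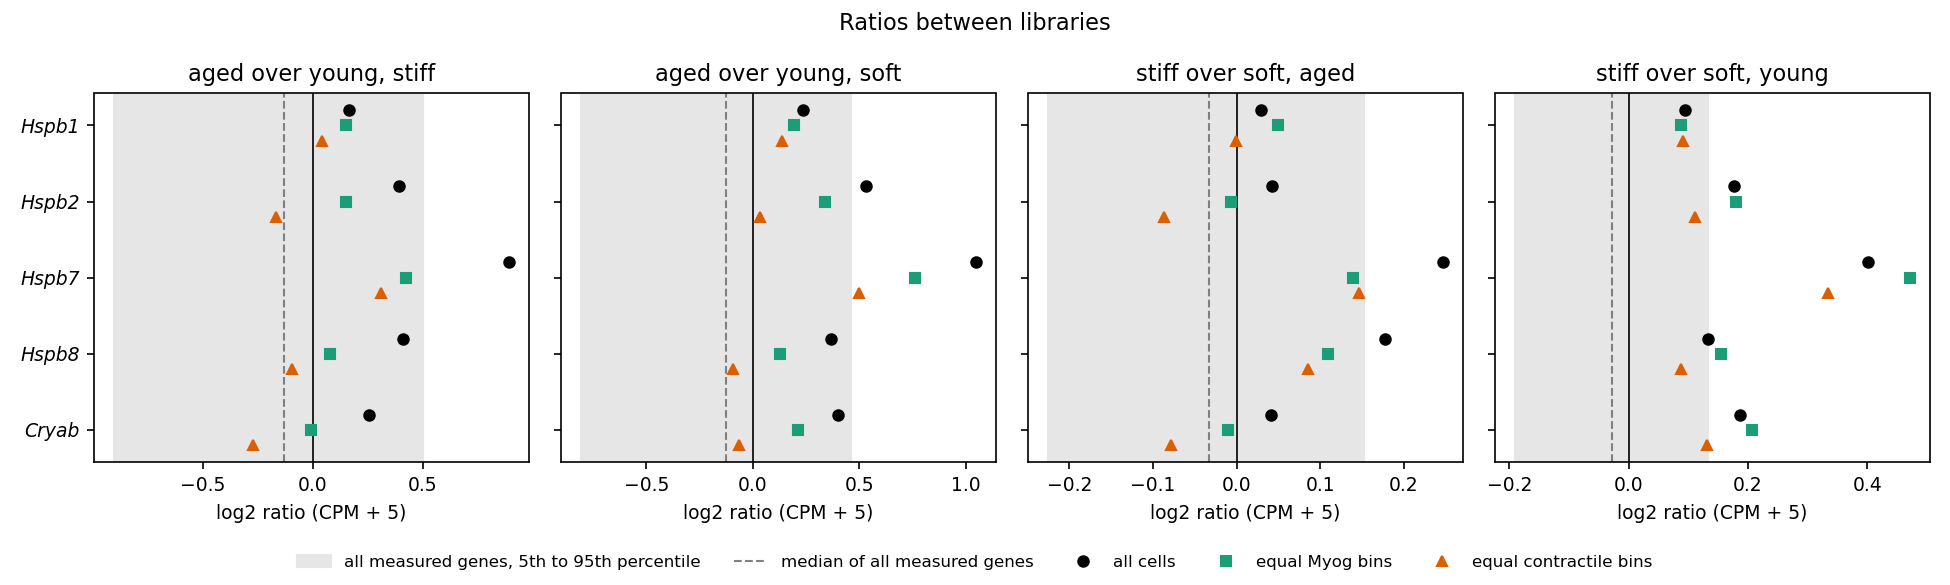
Log2 ratios of mean CPM plus 5 of the 5 small heat shock genes in the 4 comparisons, from all cells (circle), with equal weight for each Myog bin (square) and with equal weight for each contractile bin (triangle); the grey band spans the 5th to 95th percentile of all measured genes, the dashed line is their median, and each panel has its own log2 axis. In the age comparisons Hspb7 stays above 0 in all 3 versions, while Hspb8 lies below 0 with equal contractile bins on both surfaces.

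With equal contractile bins, the aged over young log2 ratio of Hspb7 was 0.50 on soft and 0.31 on stiff, in place of 1.05 and 0.89 over all cells. Hspb7 was higher in the aged library in 5 of 5 contractile bins on both surfaces, by 0.10 to 0.61 on soft and by 0.19 to 0.89 on stiff. The lower bins rest on few transcripts, 2 to 12 summed Hspb7 UMIs a library in bin 1 and 16 to 73 in bin 2, and in bins 3 to 5 the differences were 0.40 to 0.61 on soft and 0.19 to 0.44 on stiff. Hspb8 turned to -0.09 on soft and -0.09 on stiff, and Cryab to -0.06 and -0.27. Hspb2 was at 0.03 on soft and -0.16 on stiff, and Hspb1 at 0.14 and 0.04. So 1 of the 5 members remained at least 1.2-fold higher in aged cells on each surface, and it was Hspb7 both times. With these weights ratios were computed for the members only, so the share of all genes past that fold is not known. Cells of 1 contractile bin were not matched by the clusters described below. Cluster 5, with the most Hspb7, held 22.6% and 21.2% of aged stiff and aged soft cells. It held 3.99% and 3.01% of young stiff and young soft cells. Hspb7 was higher in aged cells in 3 of 5 clusters compared on soft and 6 of 7 on stiff. In cluster 5 it was lower on both. The part of this mixture in the Hspb7 ratios was not tested. With equal Myog bins the ratios lay between those of all cells and those of equal contractile bins. On soft and stiff they were 0.76 and 0.43 for Hspb7, 0.34 and 0.15 for Hspb2, and 0.21 and -0.01 for Cryab. Hspb8 was at 0.12 and 0.08, and Hspb1 at 0.19 and 0.15. Single Myog bins of Hspb7 ran from 0.25 to 1.91 on soft, highest in bin 2, and from 0.07 to 1.80 on stiff, highest in bin 1. That 1.80 compares 14.2 with 0.502 CPM and rests on a few cells. Among cells without Myog, no library averaged above 3.30 CPM of Hspb7 in contractile bins 1 and 2. Contractile bins 3, 4 and 5 held only 1, 4 and 1 such cells over all libraries.

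The age ratios of Cryab and Hspb2 changed sign along the contractile axis. In the lowest bin Cryab was higher in aged cells by 0.57 on soft and 0.56 on stiff, and in the highest bin it differed by -0.16 and -0.43. Hspb2 was higher in aged cells by 0.59 on soft and 0.78 on stiff in the lowest bin, and differed by -0.004 and -0.21 in the highest. Hspb8 likewise was at 0.19 and 0.47 in the lowest bin and at -0.20 and -0.19 in the highest. Aged over young, these 3 genes were thus higher in cells with few contractile transcripts and not higher in cells with many.

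For stiffness, equal contractile bins gave smaller values than all cells for Hspb7, and equal Myog bins gave a larger one in young cells. In young cells the stiff over soft log2 ratio of Hspb7 was 0.33 with equal contractile bins and 0.47 with equal Myog bins, and in aged cells 0.15 and 0.14. Cryab was at 0.13 in young and -0.08 in aged cells with equal contractile bins, and Hspb2 at 0.11 and -0.09. Hspb8 was at 0.09 in both ages. Hspb7 and Hspb8 in aged cells were higher on stiff in 5 of 5 contractile bins, though by as little as 0.06 and 0.05 in a bin. In young cells Hspb7 was higher on stiff in 3 of 5 contractile bins, the upper ones, by 0.24 to 0.55, and differed by -0.12 in bin 1 and -0.47 in bin 2, where its level was low. By the clusters described next, it was higher on stiff in 2 and lower in 4 of the 6 that could be compared in young cells. Of these 4, clusters 2, 3 and 4 had at most 8.57 CPM of it in young cells, and cluster 5, where it was highest, differed by -0.002.

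Cells were also grouped into 7 clusters from genes other than the members. The clusters are called by number, because only cluster 4 had several markers of 1 class alone among its leading genes. Cluster 0 had the myocyte markers Ckm and Tnnc2 beside Mymx of committed myoblasts, and clusters 1 and 2 had only Cdkn1c of the latter. Cluster 4 was led by Top2a, Mki67, Ube2c and Cdk1 and is proliferating-like. Cluster 3, led by Apoe, Ly6d and Mgp, had the most Pax7, at 158 CPM. It had the highest level of 6 of 8 progenitor markers, but also of 5 of 5 fibro-adipogenic and 3 of 4 mural ones. Cluster 2, led by Cdkn1c, Dbn1 and Rgs16, had the most Myog, at 5586 CPM, and cluster 1, led by Sct, Meg3 and Drd4, had 4198 CPM of it. Clusters 0 (Fgf21, Ckm and Itgb1bp2), 5 (Fbxo40, Ankrd23 and Casq1) and 6 (Car3, Sln and Frem2) were, with cluster 1, rich in Acta1, the skeletal actin.

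Cluster membership followed age more than surface. Cluster 0 held 40.5% and 33.2% of aged stiff and aged soft cells, against 1.49% and 0.882% of young stiff and young soft cells. Cluster 5 held 22.6% and 21.2% of the aged libraries and 3.99% and 3.01% of the young ones, and cluster 6 held 1.32% and 1.05% of the aged libraries and 33.4% and 32.3% of the young ones. The members themselves were not used to form the clusters, and the sizes are given as a description of where the members' cells lay.

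**Figure D5:**
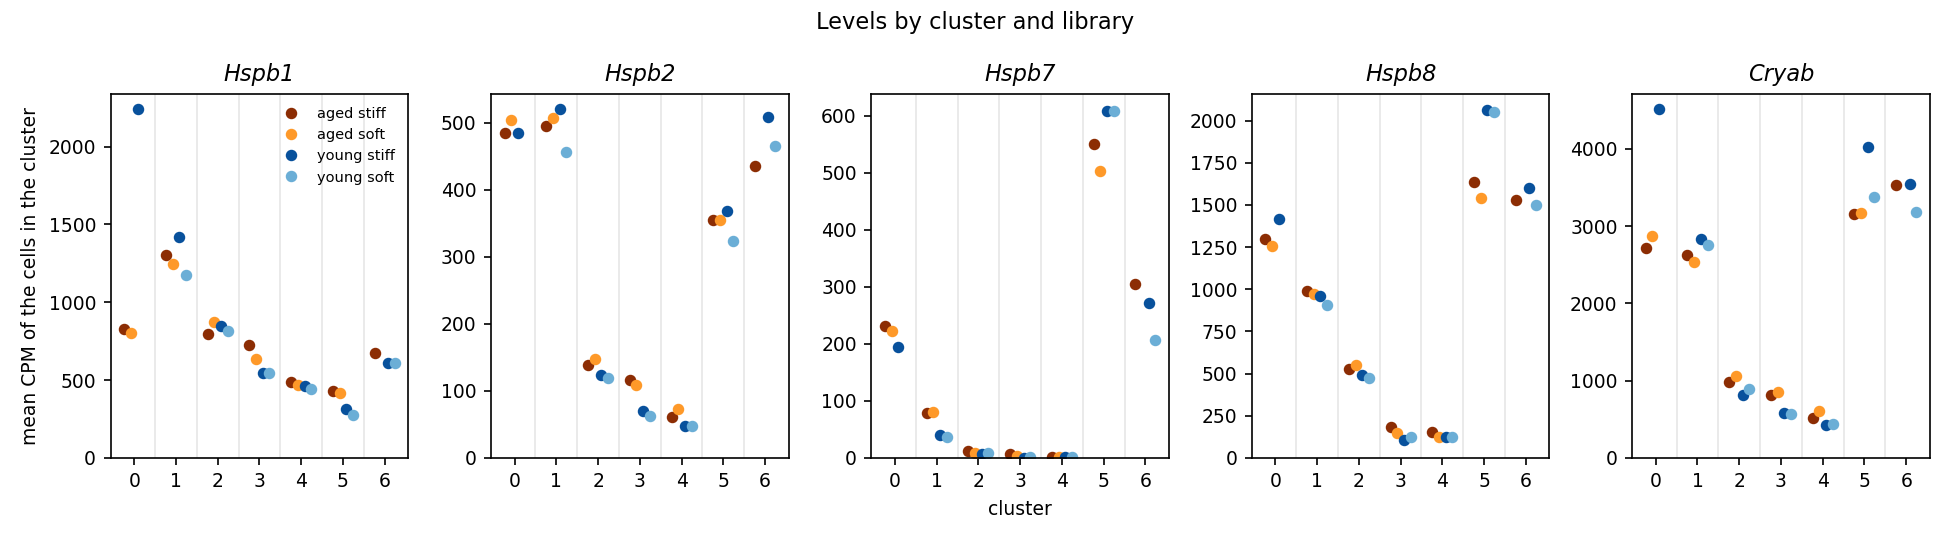
Mean CPM of each small heat shock gene in the 7 clusters, 1 point per library with at least 20 cells in the cluster; each panel has its own CPM axis from 0. Hspb7 and Hspb8 are highest in cluster 5, where Hspb1 is lowest. Clusters 3 and 4 are low in Hspb2, Hspb7, Hspb8 and Cryab, and Hspb1 is next lowest in cluster 4.

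Cluster 5 carried the most Hspb7, at 550, 503, 608 and 609 CPM in aged stiff, aged soft, young stiff and young soft. The same cluster carried the most Hspb8, at 1634, 1542, 2063 and 2053 CPM. It carried the least Hspb1, at 427, 415, 314 and 278 CPM. Cluster 1 had 78.3, 80.8, 40.0 and 35.8 CPM of Hspb7, with Acta1 as high as in cluster 0, and 1303, 1243, 1419 and 1172 CPM of Hspb1. These 2 clusters, both contractile, were therefore opposite in Hspb1 and Hspb7 in every library.

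In the proliferating-like cluster 4 Hspb7 was all but absent, at 1.96, 1.22, 0.823 and 1.66 CPM in aged stiff, aged soft, young stiff and young soft. A Hspb7 UMI was found in 6.67%, 3.74%, 1.92% and 5.09% of its cells, at a median of 30989 UMIs per cell, against 98.3% to 100% of the cells of cluster 5, at 32020. The other 4 members were present there: Cryab averaged 509, 600, 427 and 444 CPM, and Hspb1 489, 471, 460 and 440 CPM. The ratio of Hspb2 to Acta1 was 193 to 1218 Hspb2 UMIs per 1000 Acta1 UMIs in clusters 3 and 4. In clusters 0, 1, 5 and 6 it was 24.8 to 32.6. For Hspb7 the ratio was 5.89 to 40.4 in clusters 3 and 4, 10.6 to 48.4 in clusters 0, 5 and 6, and 2.01 to 4.13 in cluster 1. How many of the members' UMIs in clusters 3 and 4 came from free RNA in the cell suspension was not tested.

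Within clusters the age difference depended on the member and the cluster. In cluster 3, with most Pax7, the aged over young ratio of summed UMIs was 1.75 (counting interval 1.55 to 1.98) on soft and 1.70 (1.51 to 1.92) on stiff for Hspb2. For Cryab in the same cluster it was 1.52 (1.46 to 1.59) on soft and 1.33 (1.28 to 1.39) on stiff. Both genes were higher in aged cells in each of clusters 2, 3 and 4 on both surfaces. The aged and young cells of cluster 3 were not matched in Myog or Acta1. Myog averaged 349, 352, 123 and 104 CPM there in aged stiff, aged soft, young stiff and young soft. Acta1 averaged 244, 182, 83.3 and 54.7 CPM in the same order. The part of this in the ratios of Hspb2 and Cryab was not tested. In cluster 1 the Hspb7 ratio was 2.19 (1.83 to 2.64) on soft and 2.01 (1.65 to 2.45) on stiff. In cluster 0 on stiff, with 704 aged and 22 young cells, it was 0.41 (0.39 to 0.43) for Hspb1 and 0.66 (0.64 to 0.68) for Cryab. Hspb1 was higher in aged cells in 4 and lower in 3 of 7 clusters on stiff, and Cryab in 3 and 4.

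In cluster 5, where Hspb7 was highest, the aged libraries had less of it: the aged over young UMI ratio was 0.85 (0.78 to 0.93) on soft and 0.88 (0.82 to 0.95) on stiff. Hspb8 in cluster 5 stood at 0.76 (0.73 to 0.80) and 0.82 (0.78 to 0.85). Hspb1 in cluster 5 went the other way, at 1.499 (1.33 to 1.70) and 1.27 (1.16 to 1.403). The young share of this cluster was small, 59 young stiff and 41 young soft cells against 393 aged stiff and 282 aged soft cells.

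Over all cells of a library 4 of the members went together and Hspb1 stood apart. Pearson correlations of log2(CPM + 1) within a library ran from 0.55 to 0.72 for each pair among Hspb2, Hspb7, Hspb8 and Cryab. Hspb1 correlated with Hspb7 at -0.12 to 0.06, with Hspb8 at 0.04 to 0.22, with Hspb2 at 0.15 to 0.26 and with Cryab at 0.15 to 0.29. These are descriptions over 1333 to 1738 cells a library, which share library and depth: the 5 genes correlated with UMIs per cell at 0.09 to 0.49. Within the highest contractile bin, over 566, 337, 189 and 128 cells of aged stiff, aged soft, young stiff and young soft, the 4 no longer went together. There Hspb2 against Hspb7 lay at -0.15 to -0.09, Hspb2 against Hspb8 at -0.05 to -0.002 and Hspb7 against Cryab at 0.04 to 0.20. Hspb8 lay at 0.20 to 0.33 against Hspb7 and at 0.12 to 0.19 against Cryab, and Hspb2 against Cryab, the neighbouring pair, at 0.26 to 0.49. Hspb1 against Hspb7 lay at -0.29 to -0.12 in these cells, and against Hspb2 at 0.28 to 0.35. All 5 members had a UMI in 72.9%, 65.5%, 42.8% and 41.9% of cells of aged stiff, aged soft, young stiff and young soft, and no cell lacked all 5.

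The genes most like each member, by mean correlation over the 4 libraries and 6212 genes, differed as the members did. Hspb7 was nearest to Myom2 (0.85), Cacna1s (0.85), Smpx (0.85), Tcap (0.84) and Cox8b (0.84), among them sarcomeric M-line and Z-disc proteins and the calcium channel of skeletal muscle. Hspb8 was nearest to Klhl41 (0.75), Aldoa, Lmod3, Mylpf and Smpx (0.74 each), and Cryab to Smpx (0.73), Mylpf (0.73), Mybph (0.73), Aldoa (0.72) and Tmem182 (0.72). Aldoa is a gene whose deposited values did not come out as whole UMIs, so its level is uncertain. Hspb2 was nearest to Mylpf (0.67), Myl4, Lmod3, Mybph and Trdn (0.66 each), with Cryab at rank 6. Hspb1 had weaker neighbours, led by the proteasome subunit Psmb5 (0.47) and the peptide hormone gene Sct (0.38), then Rnh1 (0.36), Prmt1 (0.34) and Eno1 (0.34).

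A few cells carried very high Hspb1. The highest single cell of young stiff had 363 Hspb1 UMIs of 19407, or 18703 CPM, and 20971 CPM of Cryab, the highest Cryab level of that library as well. It had 515 CPM of Hspb2, 51.5 CPM of Hspa1a and none of Hspa1b, the inducible Hsp70 genes. The highest Hspb1 cells of aged stiff, aged soft and young soft had 6177, 3692 and 4801 CPM. In young stiff 11 cells had over 5 times the library's mean Hspb1, against 4, 1 and 3 in aged stiff, aged soft and young soft. Leaving out the highest 1% of cells for each gene, a choice made after these cells were seen, gave a stiff over soft log2 ratio of Hspb1 in young cells of 0.04, against 0.09 over all cells. It left the 5 members' order of libraries as it was.

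Relatives, partners and the wider heat shock response did not all move with the members over all cells. Ratios of these lists were not recomputed with equal bins. The part in them of the differing numbers of cells at each stage was not tested. Of 6 other small heat shock genes looked for, 3 were in the tables. Hspb3, the Hspb2 partner, averaged 94.9, 91.6, 69.5 and 64.8 CPM in aged stiff, aged soft, young stiff and young soft, and its aged over young log2 ratio was 0.47 on soft and 0.42 on stiff. Hspb6 was at 0.32 and 0.27, and Hspb11, also known as the ciliary transport protein Ift25, at -0.04 and -0.17.

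Over all cells, the heat shock response list went the other way with age. Of 20 measured genes, 19 had a lower and 1 a higher level in aged than in young cells on soft, and 18 and 2 did on stiff. Of all genes measured, 35.3% on soft and 35.6% on stiff were higher. In the list 13 of 20 were at least 1.2-fold lower on each surface, where 34.1% and 35.2% of all genes were, and the list median was -0.35 on both, against -0.12 and -0.13 for all genes. The largest aged over young differences were those of Serpinh1, a collagen chaperone of the endoplasmic reticulum, at -1.45 on soft and -1.65 on stiff. They were followed by Hspd1, the mitochondrial chaperonin, at -1.05 and -0.91, and Hsp90aa1, the inducible cytosolic Hsp90, at -0.62 and -0.75. Hspa1a and Hspa1b, classical targets of heat shock factor, stood at 4.58 to 6.82 CPM in the 4 libraries, under the 20 CPM needed to be measured.

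Among 8 genes of chaperone-assisted autophagy, 7 were lower and 1 higher in aged cells on each surface, with medians of -0.20 on soft and -0.28 on stiff. At least 1.2-fold lower were 3 on soft and 5 on stiff, and 1 was as much higher on stiff, Synpo2. With 8 genes these counts stand near the shares of all genes on soft (34.1% lower) and for the higher gene on stiff (14.4%), and 35.2% of all genes were lower on stiff. Sqstm1, an autophagy receptor, was at -0.53 on soft and -0.64 on stiff, and the co-chaperone Dnajb1 at -0.53 and -0.71. Bag3 itself, the partner of Hspb8, averaged 58.8, 58.1, 71.7 and 63.5 CPM in aged stiff, aged soft, young stiff and young soft. Over all cells it thus did not share the age direction of Hspb8. Stiff over soft, Bag3 was higher in young cells, as Hspb8 was, at a log2 ratio of 0.16. In aged cells its UMI ratio was 1.03 (0.977 to 1.08). Of 9 cytoskeletal partners and clients, 6 were higher and 3 lower in aged cells on each surface, with medians of 0.05 and 0.20. Desmin (Des), the Cryab client, was at 0.53 on soft and 0.55 on stiff, while vimentin (Vim) was at -0.80 and -1.04 and filamin A (Flna) at -0.79 and -1.07.

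Stiff over soft, none of these lists had a gene past 1.2-fold in young cells. The heat shock response had 7 higher and 13 lower genes at both ages, with medians of -0.04 in young and -0.07 in aged cells. That is close to all genes, of which 38.9% in young and 37.1% in aged cells were higher, with medians of -0.03 in both. In aged cells Synpo2, a Z-disc protein of the Bag3 pathway, was at 0.27, and the Z-disc actinin Actn2 at 0.41, while Flna was at -0.32 and Vim at -0.30.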

How the data were processed

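Single-cell RNA was measured in 4 libraries, and per the submitters' processing notes Cell Ranger 6.1.2 and Partek were used, without their roles. The genome build and the annotation are not given in the sources used here, nor were filters on cells. The deposited tables hold log2 values, log2(CPM + 1) per cell for 13772 genes, a unit found from the values, which sum to 1000000 per cell once the log2 is undone. Whole UMIs were recovered by dividing each cell's CPM by its most frequent value above 0, and 99.95% to 99.96% of values came out whole within 0.05. Values of all 5 members did. A cell was kept if it had 500 genes or more and no more than 20% mitochondrial counts, so 1 aged stiff and 2 young stiff cells fell out. No doublet caller was run and doublets were kept.

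Mean CPM over cells was compared as log2 ratios with a pseudocount of 5, which understates differences of low genes, over genes that reached 20 CPM in 1 library or both. The total was 68244857, 47503841, 44004619 and 50361183 UMIs in aged stiff, aged soft, young stiff and young soft. No test between groups was made, since each group is 1 library. Ratios of summed UMIs have the exact conditional binomial interval at 95%, and shares of cells the exact (Clopper-Pearson) one. Genes named beside the members are the 3 measured genes of each list with the largest absolute ratio, further genes past 1.2-fold, the 5 genes most correlated with each member, and axis and marker genes. Hspa1a, Hspa1b, Bag3 and the highest cells were described after their values were seen. Clusters came from the Leiden method (scanpy 1.11.5, resolution 0.5, 2000 variable genes without the members, 30 principal components, 15 neighbours). Statistics used Python 3.11.15, numpy 2.4.6 and scipy 1.17.1, and recovery of known folds was tested on simulated data. The members and lists were chosen with earlier results of these data known.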

Additional observations from a re-analysis of the deposited data

How the results depend on the processing

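All ratios rest on 1 library per group, so animal, culture, capture and sequencing differences cannot be told apart from age or surface. No paired analysis was possible because each group has 1 library. With no filter on cells, a pseudocount of 1 or 20, ratios of summed UMIs, or without cells over 2 times the median UMIs, the members' median ratios and counts past 1.2-fold kept their values within counting error. Under median-of-ratios scaling the median log2 ratio of the 5 members was 0.51 (aged over young, soft), 0.50 (aged over young, stiff), 0.21 (stiff over soft, young) and 0.0761 (stiff over soft, aged), and 5 members were past 1.2-fold for aged over young on stiff and 1 for stiff over soft in aged cells. Without cells under 1% mitochondrial counts, the age medians were 0.37 on soft and 0.37 on stiff, and 1 member, against 0, was past 1.2-fold for stiff over soft in aged cells. With equal Myog bins, the age medians were 0.21 on soft and 0.15 on stiff, with 2 and 1 members past 1.2-fold. With equal contractile bins, the medians were 0.0327 (aged over young, soft), -0.0949 (aged over young, stiff), 0.11 (stiff over soft, young) and -0.000814 (stiff over soft, aged), with 1 member past 1.2-fold in each age comparison, and 4 age ratios that were past 1.2-fold over all cells turned negative: Hspb8 to -0.0927 on soft and -0.0949 on stiff, Cryab to -0.0637 on soft and Hspb2 to -0.16 on stiff. Without the highest 1% of cells for each member, an alternative chosen after seeing the data, the median for aged over young on stiff was 0.41. The median over members and libraries of the log2 ratio of the top over the bottom bin was 3.24 on the contractile axis, against 2.26 along Myog. The cause of these changes was not tested. Shares of all genes past 1.2-fold are not given for these settings, so the counts of members have no background beside them. Median-of-ratios scaling raised the ratios of all genes, not those of the members alone.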
